A study of Homo sapiens with 34 samples.

Results

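ATP-binding cassette (ABC) transporters are membrane proteins that bind and hydrolyse ATP to move a substrate across a membrane. Among the 8 genes described here, ABCG2, ABCB1, ABCC1, ABCC3 and ABCC4 export drugs, conjugated steroids, organic anions or cyclic nucleotides, and are studied for resistance to cancer drugs. ABCA1 and ABCG1 export cholesterol and phospholipid to lipoprotein particles, and both are transcribed under control of the sterol-sensing liver X receptors (LXR). ABCA3 loads lipid into secretory organelles, best known in the lung. In the prostate, ABCC4 is a transporter of the glandular epithelium, and ABCG2 is best known from stem-like cells.

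The genes were taken from a table of read counts by symbol, and all 8 were found among its 26336 genes. They were gathered around ABCG2, whose level in androgen medium lay on opposite sides of its stripped-serum level in LNCaP and VCaP. Values from these contrasts therefore chose the set, and they are given below as a description with no test.

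RNA was measured in 34 libraries of 4 human prostate cell lines, in 17 groups. RWPE is non-tumorigenic prostate epithelium, LNCaP comes from a lymph node metastasis, and VCaP and MDAPCa2a come from bone metastases. Cells grew on plastic or on amorphous calcium phosphate (ACP), a mineral coating that stands in for bone. The control medium was that of the line, the stripped medium had serum treated with charcoal and dextran to take out steroids, and the androgen medium was stripped medium plus androgen, given on the labels as 100 mM. The labels describe these media for all lines together and do not say which base medium or serum the RWPE androgen libraries had. Titles call the androgen DHT and condition labels call it testosterone. LNCaP and VCaP were sampled on plastic in control and stripped medium and on ACP in control, stripped and androgen medium. MDAPCa2a lacked the ACP control group, and RWPE lacked both stripped groups. A group held 2 libraries, apart from RWPE on ACP with androgen (3 libraries) and VCaP on plastic in stripped medium (1 library). Plastic control is labelled as continuous culture and every other group as day 4. Control medium was keratinocyte serum-free medium for RWPE and serum-containing medium of a different base for each of the other lines. The plastic of MDAPCa2a carried a protein coating (FNC) that its ACP surfaces did not, so surface and coating cannot be told apart there. Nothing in the labels says that the libraries of a group came from separate cultures, so p-values measure the spread between these libraries, which may be technical.

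Libraries held 15.4 M to 44.8 M counts. By depth the 8 from plastic control lay high (34.9 M to 44.8 M) but overlapped the other 26, which reached up to 37 M. A list of 5 lymphoid transcripts, in CPM (each count scaled to a total of 1 M after TMM), set the plastic control libraries apart. It summed to 4.87 to 17.4 CPM there and to 0.0666 to 4.57 CPM in the other 26. Any comparison with a plastic control group therefore cannot be told apart from this difference between libraries. Basal keratin genes and TP63 summed to 3360 to 15900 CPM in RWPE and to at most 37.3 CPM in each library of the other lines. In luminal genes RWPE had the lowest range, 801 to 1470 CPM, against 1260 to 15700 CPM over the other lines. As a check of the androgen label, FKBP5, an androgen-induced chaperone gene, rose by 1.94 ± 0.24 (log2 ± SE) in LNCaP (adjusted p = 9.28e-04) and by 3.31 ± 0.35 in VCaP (adjusted p = 9.74e-04). It did not pass the test in MDAPCa2a (-0.14 ± 0.20, adjusted p = 0.968) or RWPE (-0.35 ± 0.22, adjusted p = 0.272). KLK3 and TMPRSS2 likewise rose in LNCaP and VCaP and passed no test in MDAPCa2a or RWPE. With serum stripping on plastic FKBP5 fell in LNCaP (-1.26 ± 0.23, adjusted p = 0.00719), was at -1.33 ± 0.42 in VCaP (adjusted p = 0.122) and rose in MDAPCa2a (2.10 ± 0.21, adjusted p = 0.00719).

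The windows of sequence around the start sites are shown for ABCG2, ABCA1 and ABCC4, since the results on serum and androgen turn on these 3 members. They come from RefSeq (GRCh38.p14, 250 bases before the start to 50 after it), whereas the counts were made on hg19, so the coordinates belong to the windows only. The table gave windows for 5 of the 8 members, and for ABCG2 it gave 5 start sites, of which the one nearest to the start of the principal transcript in GENCODE v29 is shown. Its window is chr4:88158860-88159159 (minus strand), that of ABCA1 is chr9:104928106-104928405 (minus strand), and that of ABCC4 is chr13:95301402-95301701 (minus strand). Capitals mark matches on either strand to 1 of 6 motifs: AGAACA (part of the element bound by androgen and glucocorticoid receptors), AGGTCA (part of the elements of other nuclear receptors), GGGCGG (GC box), CACGTG (E-box), TGACNNNGC (core of the antioxidant element) and TATAAA. No matches overlapped in these windows.
ABCG2: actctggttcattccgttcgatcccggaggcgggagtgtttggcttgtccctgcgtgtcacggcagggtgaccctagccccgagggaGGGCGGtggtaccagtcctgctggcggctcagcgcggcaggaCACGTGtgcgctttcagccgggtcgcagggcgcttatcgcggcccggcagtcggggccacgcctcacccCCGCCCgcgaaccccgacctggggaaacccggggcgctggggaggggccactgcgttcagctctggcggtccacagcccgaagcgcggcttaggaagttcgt
ABCA1: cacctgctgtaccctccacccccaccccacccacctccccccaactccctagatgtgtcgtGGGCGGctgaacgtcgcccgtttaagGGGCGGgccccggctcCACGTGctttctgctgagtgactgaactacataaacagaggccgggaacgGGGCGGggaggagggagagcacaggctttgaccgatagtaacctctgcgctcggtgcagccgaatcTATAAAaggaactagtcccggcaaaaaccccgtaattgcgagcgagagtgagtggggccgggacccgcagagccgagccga
ABCC4: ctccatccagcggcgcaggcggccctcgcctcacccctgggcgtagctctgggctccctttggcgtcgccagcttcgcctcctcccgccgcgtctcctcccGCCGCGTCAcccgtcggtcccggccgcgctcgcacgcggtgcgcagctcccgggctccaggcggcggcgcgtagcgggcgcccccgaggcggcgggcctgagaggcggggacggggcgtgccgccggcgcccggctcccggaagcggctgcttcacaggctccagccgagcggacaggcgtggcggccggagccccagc

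Counted from the annotated start, the ABCG2 window held CACGTG at -121 and GGGCGG at -163 and -52. The ABCA1 window held CACGTG at -147, GGGCGG at -189, -163 and -97, and TATAAA at -31, while the ABCC4 window held a single match, to TGACNNNGC, at -149. None of the 3 held an exact match to AGAACA or AGGTCA. The search took exact matches only, so receptor elements that differ from these letters were not looked for. Of the other 4 ABCG2 windows, 1 held AGGTCA at -150, 1 held TGACNNNGC at 2, 1 held the same 3 matches as the window shown, which it overlaps, and 1 held none. Of 35116 windows of this length, 14.8% held AGAACA, 13.8% AGGTCA, 45% GGGCGG, 7.26% CACGTG, 13.3% TGACNNNGC and 11.5% TATAAA. These matches are letters in a window, and counts per gene do not say which start was used.

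ABCG2, the efflux pump also known as BCRP, was highest in VCaP on ACP with androgen and in LNCaP on ACP in stripped medium. In LNCaP on ACP it was at 14.0 and 21.2 CPM in stripped medium and at 0.828 and 0.682 CPM with androgen. In VCaP on ACP it was at 0.866 and 0.571 CPM in stripped medium and at 15.8 and 27.2 CPM with androgen. The libraries of both media were far apart in each line, and the order was the opposite. In bulk RNA, fewer cells with ABCG2 and less ABCG2 RNA per cell cannot be told apart. Between androgen and stripped medium the log2 difference was -4.55 ± 0.41 in LNCaP (23.4-fold lower) and 4.90 ± 0.55 in VCaP (29.9-fold higher), and in a fit of all lines the VCaP difference exceeded that of LNCaP by 9.43 ± 0.75. The libraries with androgen in LNCaP and those without it in VCaP reached nearly the same level. Among all genes 7.73% (LNCaP) and 17.5% (VCaP) passed an adjusted p of 0.05 between these media, which says nothing about genes chosen on them. Beside the VCaP values, a list of 5 macrophage transcripts summed to 8.93 to 14.5 CPM without and 82.5 to 155 CPM with androgen. Of these, LYZ went from 6.32 and 12.2 CPM to 80.4 and 153 CPM, while CSF1R and CD163 were at 0 to 0.129 CPM. In LNCaP that list summed to 11.1 to 12.9 CPM without and 32.4 to 38.6 CPM with androgen. A list of 5 fibroblast transcripts went from 39.9 to 160 CPM without to 7.28 to 8.36 CPM with androgen in VCaP. In the same libraries 4 endothelial transcripts went from 0.818 to 1.63 CPM to 12.4 to 12.5 CPM, with CDH5 at 0 reads in both media, and 10 liver transcripts, mostly ALB, went from 320 to 383 CPM to 49.8 to 113 CPM. The part of these transcripts in the result was not tested.

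In MDAPCa2a on ACP, ABCG2 was at 3.80 and 2.15 CPM in stripped medium and at 3.94 and 2.31 CPM with androgen. These libraries overlapped, with a log2 difference of 0.03 ± 0.55 (edgeR, adjusted p = 0.997). Measured against the LNCaP and VCaP effects, the MDAPCa2a effect was 4.60 ± 0.70 above that of LNCaP and 4.83 ± 0.71 below that of VCaP on the log2 scale, both given without a test.

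RWPE has no stripped group, so its androgen libraries were set against control medium on ACP, a contrast in which androgen and any change of base medium or serum cannot be told apart. ABCG2 was at 2.03 and 2.31 CPM in control medium and at 4.08, 4.11 and 5.35 CPM with androgen. All 3 androgen libraries lay above both control libraries, and ABCG2 rose by 1.08 ± 0.28 on the log2 scale (2.12-fold, edgeR, adjusted p = 0.0273). In the same contrast the basal genes KRT5, KRT14 and TP63 summed to 12600 to 15900 CPM in control medium and to 3360 to 11100 CPM with androgen, with no overlap, while luminal genes overlapped (936 to 1100 and 801 to 1150 CPM). The fibroblast list was also lower with androgen (15 to 21 CPM against 26.9 to 31.9 CPM), as were the macrophage, liver, lymphoid and endothelial lists, all without overlap. The part of these transcripts in the RWPE values was not tested. The ABCG2 call was lost without either control library, where no gene of the table passed, and also in a fit of all lines and in a fit without the plastic control libraries.

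**Figure D1:**
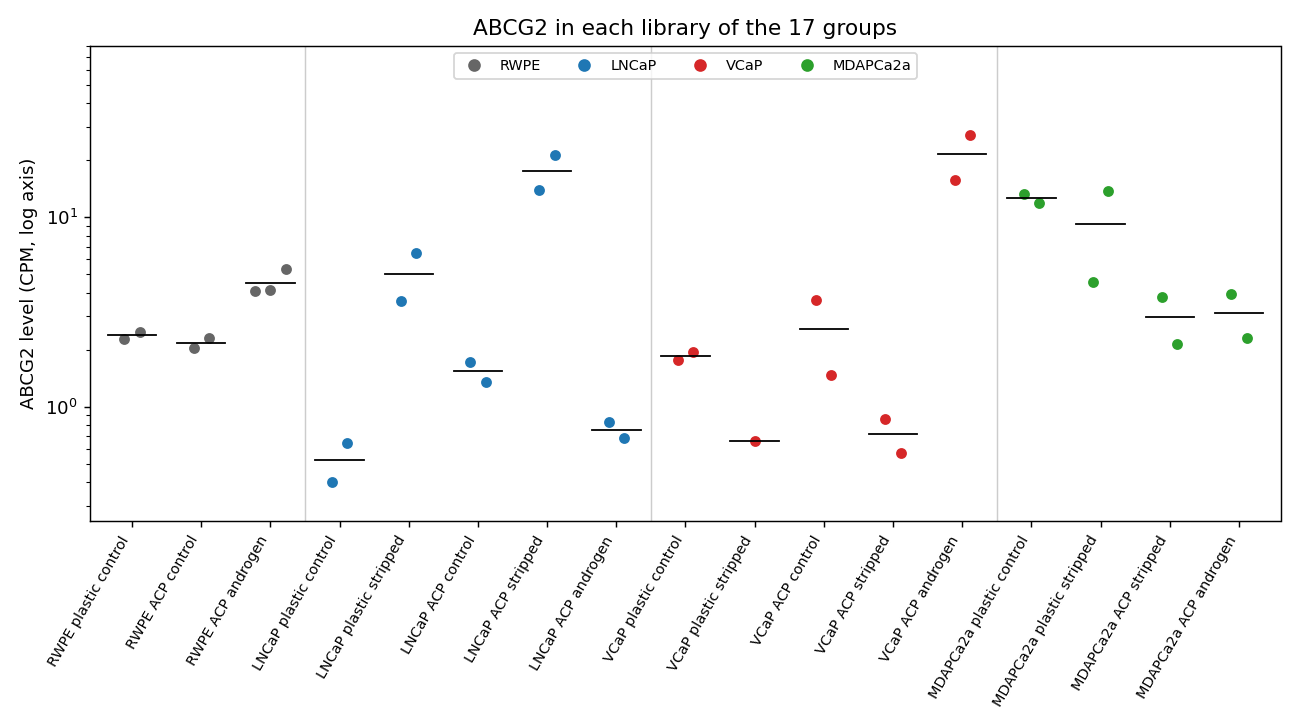
ABCG2 level in CPM (log axis) for each of 34 libraries, by group, with colours for lines and black lines for group means. VCaP on ACP with androgen (15.8 and 27.2 CPM) and LNCaP on ACP in stripped medium (14.0 and 21.2 CPM) lie at the top, and the 2 LNCaP plastic control libraries (0.400 and 0.642 CPM) at the bottom.

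Over all 17 groups the mean of ABCG2 ranged 41.3-fold. The order from the top was VCaP ACP androgen (21.5 CPM), LNCaP ACP stripped (17.6), MDAPCa2a plastic control (12.6), MDAPCa2a plastic stripped (9.15), LNCaP plastic stripped (5.04) and RWPE ACP androgen (4.51). Then came MDAPCa2a ACP androgen (3.12), MDAPCa2a ACP stripped (2.98), VCaP ACP control (2.57), RWPE plastic control (2.39), RWPE ACP control (2.17), VCaP plastic control (1.85) and LNCaP ACP control (1.54). LNCaP ACP androgen (0.755), VCaP ACP stripped (0.718), VCaP plastic stripped (0.661, 1 library) and LNCaP plastic control (0.521 CPM) closed the order. Libraries of 10 of the 16 neighbouring pairs overlapped, among them the top 2 groups. The 6 gaps without overlap followed LNCaP ACP stripped, RWPE ACP androgen, RWPE ACP control, VCaP plastic control, LNCaP ACP control and VCaP plastic stripped.

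On plastic, in libraries outside the androgen contrasts that chose the set, ABCG2 rose with serum stripping in LNCaP. It was at 0.400 and 0.642 CPM in control medium and at 3.60 and 6.47 CPM in stripped medium. The stripped libraries lay above both controls, and ABCG2 rose by 3.32 ± 0.41 (9.96-fold, edgeR, adjusted p = 8.63e-04). In VCaP on plastic the controls had 1.76 and 1.94 CPM and the single stripped library 0.661 CPM, a difference of -1.41 ± 0.68 that did not pass the test (adjusted p = 0.283). In MDAPCa2a on plastic the controls had 13.3 and 11.9 CPM and the stripped libraries 4.56 and 13.7 CPM, which overlapped (-0.42 ± 0.49, adjusted p = 0.748). On ACP the stripped libraries are those that chose the set: the log2 differences from control medium were 3.50 ± 0.39 in LNCaP, where control libraries had 1.72 and 1.36 CPM, and -1.83 ± 0.52 in VCaP, where they had 3.67 and 1.47 CPM, without a test. The VCaP value was -0.99 without VCaP ACP control replicate 1. On LNCaP plastic, luminal genes summed to 4870 to 4980 CPM in control and 1260 to 1600 CPM in stripped medium, and their part in the LNCaP plastic values was not tested. The plastic and ACP contrasts of a line share no library, but they come from 1 fit with a shared estimate of the spread. The set was also chosen with earlier results of these data known.

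By surface, ABCG2 rose on ACP in LNCaP control medium by 1.66 ± 0.42 (3.16-fold, edgeR, adjusted p = 0.0298), from the plastic values above to 1.72 and 1.36 CPM. Fitting all lines together ended that call, as did leaving out LNCaP plastic control replicate 1 or 2 or LNCaP ACP control replicate 1. In LNCaP stripped medium the difference between ACP and plastic was 1.84 ± 0.35 and in VCaP 0.12 ± 0.71, and the interaction of surface and serum was 0.18 ± 0.57 in LNCaP and -0.42 ± 0.85 in VCaP, all given without a test. In RWPE and VCaP control medium the differences were -0.11 ± 0.30 (adjusted p = 0.86) and 0.54 ± 0.47 (adjusted p = 0.771). In MDAPCa2a stripped medium ABCG2 was at 4.56 and 13.7 CPM on coated plastic and at 3.80 and 2.15 CPM on ACP. Both ACP libraries lay below both plastic ones, but the difference of -1.52 ± 0.53 did not pass (adjusted p = 0.278).

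ABCB1, the P-glycoprotein pump, was barely read in any line. It had 0 reads in 15 of 34 libraries, at most 13 reads in a library and 47 reads in all, and it failed the count filter of every fit. A count of 0 allows up to 3 counts, by counting error only. In the 15 libraries with 0 reads that is 0.0771 to 0.188 CPM, depending on the depth of the library. The highest value was 0.349 CPM, in RWPE plastic control replicate 1, and no library outside RWPE plastic control had more than 4 reads. Differences in ABCB1 between groups were therefore not tested. By group, RWPE had 17 reads in plastic control, 4 in ACP control and 0 in ACP androgen libraries, and nothing is read from so few.

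ABCC4, the MRP4 pump for cyclic nucleotides and steroid conjugates, had the highest mean level per exon length of the 8 genes in each cancer line on plastic control. In CPM per kb of exon (GENCODE v29 exon union, 6267 bases for ABCC4) it reached 74.6 ± 2.18 in MDAPCa2a, 54.5 ± 0.891 in LNCaP and 21.4 ± 1.88 in VCaP (SD, n = 2), but 2.91 ± 0.132 in RWPE. In VCaP its libraries (20.1 to 22.7) overlapped those of ABCA3 (12.6 to 23.4). ABCC1, the glutathione-conjugate pump MRP1, was highest of the 8 in RWPE at 19.8 ± 1.14. Per length ABCG2 (4813 bases) stood at 2.62 ± 0.211 in MDAPCa2a, 0.495 ± 0.0294 in RWPE, 0.385 ± 0.0275 in VCaP and 0.108 ± 0.0355 in LNCaP on plastic control, below ABCC4 and ABCC1 in every line.

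**Figure D2:**
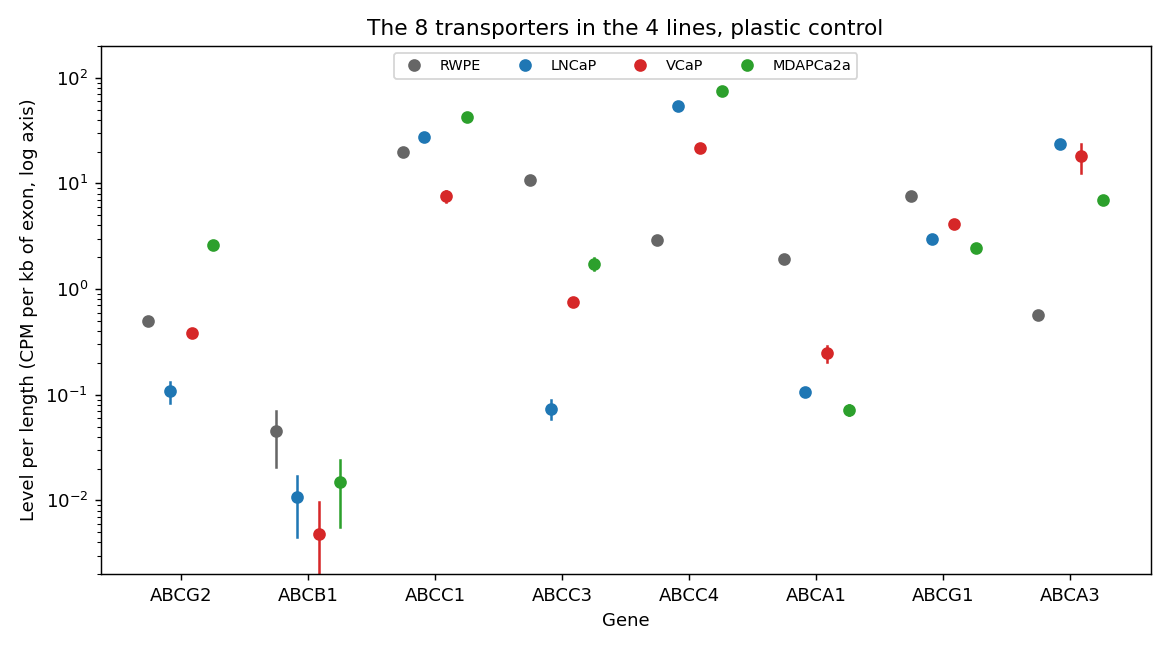
Level per exon length (CPM per kb of exon, log axis) of the 8 transporters in the 2 plastic control libraries of each line; points are means and bars run from the lower to the higher library, with 0 reads drawn at the axis bottom. By mean ABCC4 leads in MDAPCa2a (74.6), LNCaP (54.5) and VCaP (21.4, with bars that overlap those of ABCA3), and ABCC1 (19.8) leads in RWPE.

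Between lines on plastic control most members and most genes differed, apart from MDAPCa2a against LNCaP, where 3 of 7 members did. LNCaP differed from RWPE in 6 of 7 tested members (57.4% of all genes passed), VCaP from RWPE in 6 (62.4%) and MDAPCa2a from RWPE in 7 (56.7%). VCaP differed from LNCaP in 5 (52.6%), MDAPCa2a from LNCaP in 3 (40.2%) and MDAPCa2a from VCaP in 7 (52.4%). These shares of members are on so few genes that they are given as counts only. ABCC4 was 19.0-fold higher in LNCaP, 7.45-fold in VCaP and 25.8-fold in MDAPCa2a than in RWPE, with log2 differences of 4.25 ± 0.26, 2.90 ± 0.25 and 4.69 ± 0.27 (edgeR, adjusted p = 1.45e-12, 3.35e-10 and 2.80e-13). ABCA3, the lipid transporter, was also higher in all 3 cancer lines, at 45.9 to 161 CPM against 3.74 and 3.97 CPM in RWPE. Its log2 differences from RWPE were 5.39 ± 0.35 in LNCaP, 5.01 ± 0.34 in VCaP and 3.63 ± 0.33 in MDAPCa2a (adjusted p = 3.54e-12, 7.84e-12 and 8.77e-10).

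The opposite held for ABCC3, ABCA1 and ABCG1, which were lower in each cancer line than in RWPE. ABCC3, the basolateral MRP3 pump, was at 73.9 and 63.5 CPM in RWPE, 12.5 and 9.64 in MDAPCa2a, 4.51 and 5.19 in VCaP, and 0.568 and 0.376 CPM in LNCaP. The log2 differences from RWPE were -2.63 ± 0.38, -3.80 ± 0.40 and -7.15 ± 0.49 (adjusted p = 1.95e-06, 1.20e-08 and 7.76e-12). For ABCA1, RWPE had 23.1 and 20.3 CPM, VCaP 2.31 and 3.29, LNCaP 1.14 and 1.28, and MDAPCa2a 0.902 and 0.720 CPM. Those differences from RWPE were -2.93 ± 0.34, -4.14 ± 0.37 and -4.73 ± 0.38 (adjusted p = 6.71e-08, 6.85e-10 and 1.47e-10). ABCG1 was at 34.7 and 35.0 CPM in RWPE and between 10.6 and 20.4 CPM in the other lines, with log2 differences of -0.86 to -1.64. Its VCaP call (adjusted p = 0.00842) was lost without VCaP plastic control replicate 2.

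ABCC1 ran from 276 and 280 CPM in MDAPCa2a through 177 and 185 in LNCaP and 136 and 125 in RWPE to 43.8 and 56.1 CPM in VCaP. It was higher in MDAPCa2a (1.10 ± 0.26, adjusted p = 8.11e-04) and lower in VCaP (-1.36 ± 0.26, adjusted p = 7.71e-05) than in RWPE, while LNCaP did not pass (0.49 ± 0.26, adjusted p = 0.106). ABCG2 was 5.30-fold higher in MDAPCa2a than in RWPE (2.41 ± 0.46, adjusted p = 7.91e-05) and 4.50-fold lower in LNCaP (-2.17 ± 0.50, adjusted p = 6.65e-04). In VCaP it was at -0.35 ± 0.46 (adjusted p = 0.528). Between the cancer lines ABCG2 was 23.9-fold higher in MDAPCa2a than in LNCaP (4.58 ± 0.52, adjusted p = 1.11e-07), 6.74-fold higher than in VCaP (2.75 ± 0.47, adjusted p = 2.49e-05), and higher in VCaP than in LNCaP (1.82 ± 0.50, adjusted p = 0.00381), a call lost without LNCaP plastic control replicate 1.

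**Figure D3:**
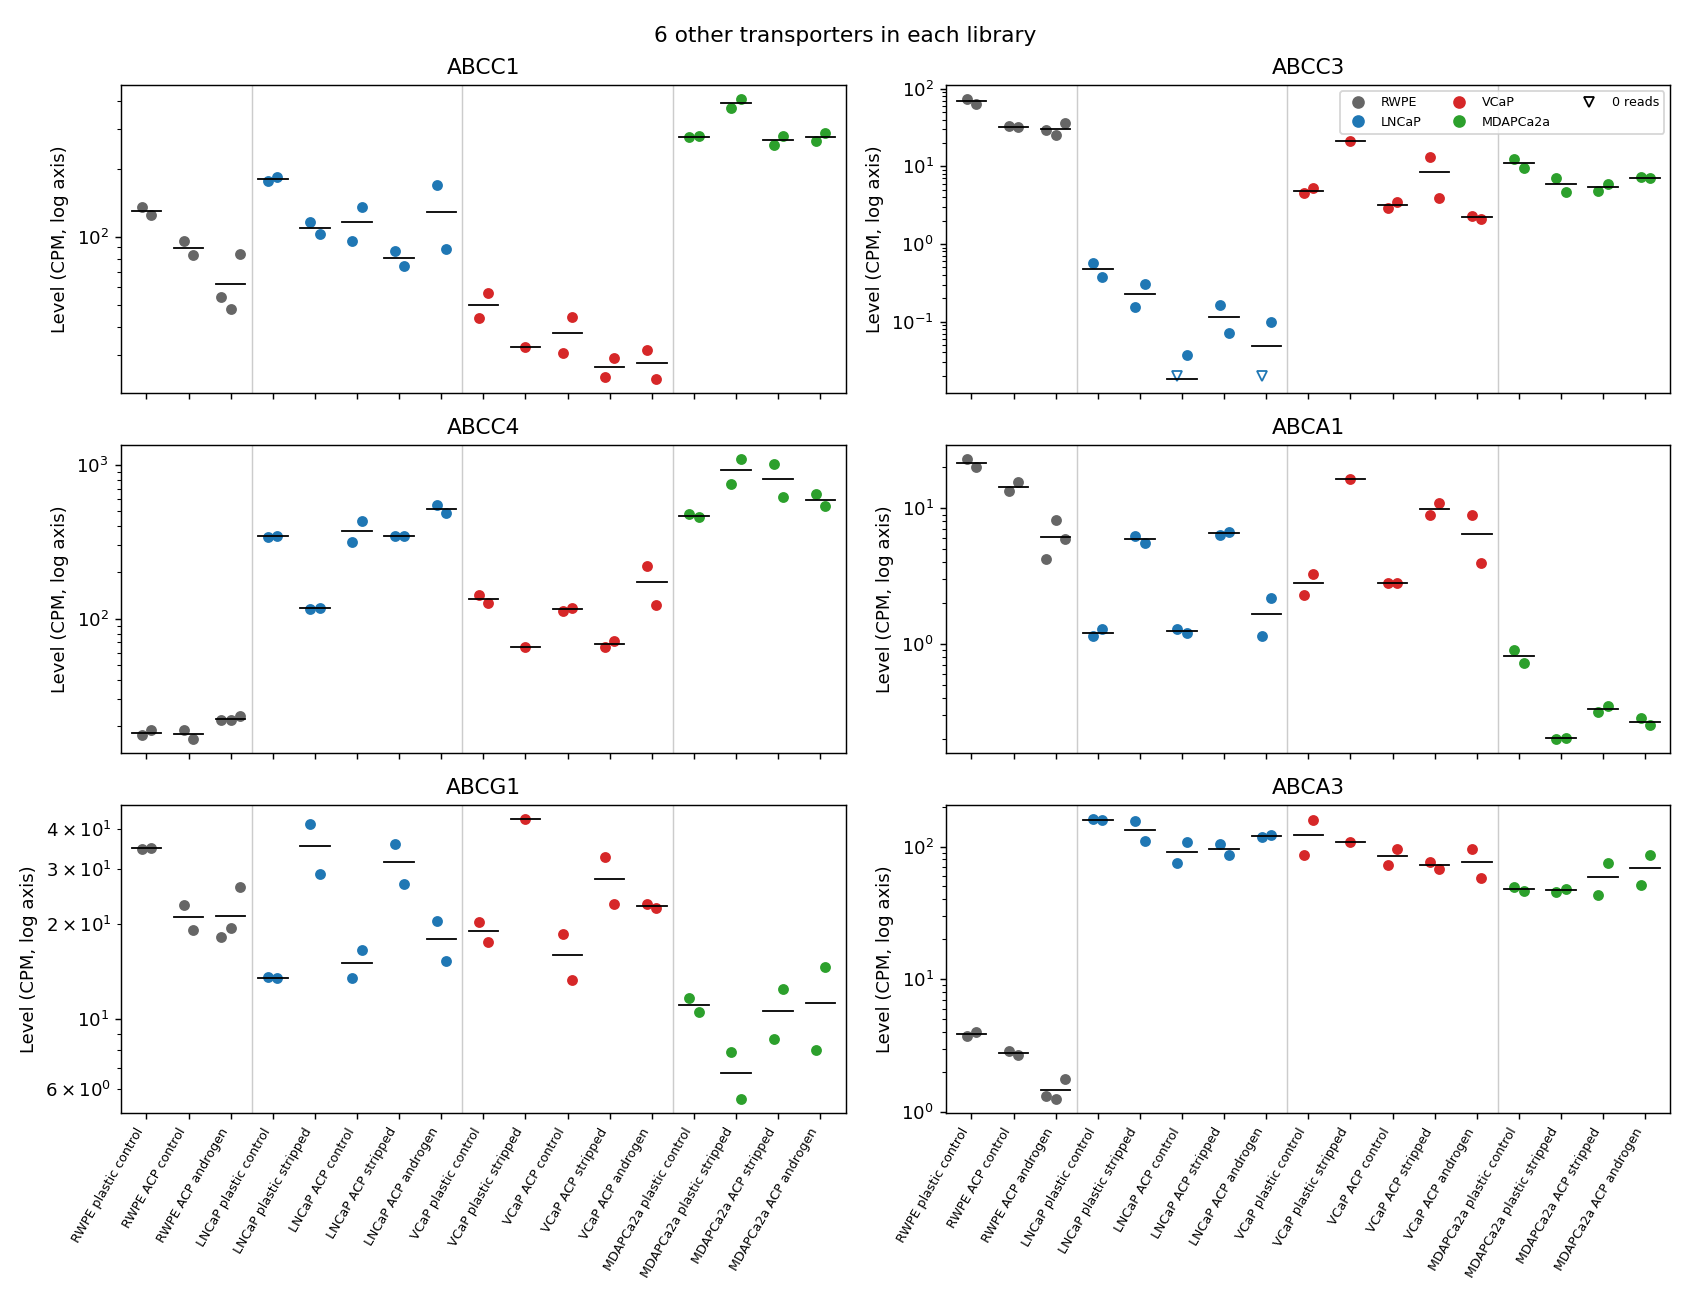
Levels in CPM (log axes, a separate range in each panel) of ABCC1, ABCC3, ABCC4, ABCA1, ABCG1 and ABCA3 in each of 34 libraries by group; colours give the line, black lines are group means and open triangles mark 0 reads. ABCC4 and ABCA3 are lowest in RWPE, ABCC3 is lowest in LNCaP, and ABCA1 in LNCaP is higher in both stripped groups (5.56 to 6.75 CPM) than in both control groups (1.14 to 1.29 CPM).

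The sterol exporters rose together in stripped serum in LNCaP. ABCA1 was at 1.14 and 1.28 CPM in plastic control and 6.25 and 5.56 CPM in plastic stripped libraries, and at 1.29 and 1.21 CPM in ACP control and 6.38 and 6.75 CPM in ACP stripped libraries. Stripped libraries lay above control libraries on both surfaces, with rises of 2.34 ± 0.31 on plastic (5.05-fold, adjusted p = 0.00120) and 2.37 ± 0.32 on ACP (5.18-fold, adjusted p = 0.00185). ABCG1 rose by 1.43 ± 0.22 on plastic (adjusted p = 0.00265) and by 1.04 ± 0.22 on ACP (adjusted p = 0.0202). The ACP call of ABCG1 was lost without LNCaP ACP stripped replicate 1 or LNCaP ACP control replicate 1. The ACP stripped libraries belong to the contrasts that chose the set, so the ACP tests are not independent of that choice.

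In VCaP the ABCA1 values had the same order. They were 2.31 and 3.29 CPM in plastic control, 16.4 CPM in the single plastic stripped library, 2.80 and 2.80 CPM in ACP control, and 8.90 and 11.0 CPM in ACP stripped libraries. ABCA1 rose on plastic by 2.62 ± 0.46 (adjusted p = 0.0473), a call lost with RLE scaling and without VCaP plastic control replicate 1, and on ACP the difference of 1.84 ± 0.41 did not pass (adjusted p = 0.0663). ABCG1 was at 1.25 ± 0.31 on plastic (adjusted p = 0.0746) and 0.81 ± 0.26 on ACP (adjusted p = 0.166). In MDAPCa2a on plastic both genes lay on the other side: ABCA1 was at 0.902 and 0.720 CPM in control and 0.200 and 0.203 CPM in stripped medium (-1.94 ± 0.48, adjusted p = 0.0869), and ABCG1 at -0.68 ± 0.31 (adjusted p = 0.316). ABCA1 had 56 reads in these control and 11 in these stripped libraries, and passed the MDAPCa2a count filter only through plastic control. No fall is therefore read from its test. FKBP5 rose with stripping in the same libraries.

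With androgen the LNCaP values of both exporters lay back towards control medium, given here as a description. ABCA1 was at 1.14 and 2.17 CPM with androgen, a difference of -1.99 ± 0.31 from stripped medium, and ABCG1 at 20.6 and 15.3 CPM against 36.04 and 26.92 CPM, a difference of -0.82 ± 0.22. Libraries of the 2 media did not overlap for either gene. In VCaP, ABCA1 with androgen was at 8.95 and 3.96 CPM, overlapping the stripped libraries (-0.63 ± 0.39), and ABCG1 was at 23.2 and 22.5 CPM (-0.29 ± 0.26). In MDAPCa2a the differences were -0.35 ± 0.60 for ABCA1 and 0.06 ± 0.31 for ABCG1 (adjusted p = 0.968 and 0.985). In RWPE, ABCA1 was at 13.4 and 15.5 CPM in control medium and 4.21, 8.21 and 5.94 CPM with androgen. All 3 androgen libraries were below both controls, and ABCA1 fell by 1.22 ± 0.25 on the log2 scale (adjusted p = 0.0175), a call that was lost without either ACP control library. The basal genes that were lower in these androgen libraries are given above.

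ABCC4 in LNCaP was low on plastic in stripped medium. It was at 338 and 346 CPM in plastic control, 116 and 117 CPM in plastic stripped, 315 and 432 CPM in ACP control, and 344 and 342 CPM in ACP stripped libraries. Only the plastic stripped libraries were low. On plastic ABCC4 fell by 1.50 ± 0.16 with stripping (2.82-fold, adjusted p = 3.60e-04), whereas on ACP the difference of -0.14 ± 0.16 did not pass (adjusted p = 0.643). In stripped medium it was 3.00-fold higher on ACP than on plastic (1.58 ± 0.16, adjusted p = 4.71e-04). The interaction of surface and serum was 1.36 ± 0.22 (adjusted p = 0.0293), and that call was lost in 7 of 8 fits that left out 1 library, all but the one without LNCaP ACP control replicate 2. Among all genes 0.307% passed in this interaction. The ACP stripped libraries belong to the contrasts that chose the set, so the tests that use them are not independent of that choice.

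In VCaP, ABCC4 was at 142 and 126 CPM in plastic control, 65.7 CPM in plastic stripped, 113 and 117 CPM in ACP control, and 65.0 and 71.5 CPM in ACP stripped libraries. Stripped libraries lay below control libraries on both surfaces, but neither difference passed (-0.96 ± 0.32, adjusted p = 0.142 on plastic, and -0.74 ± 0.26, adjusted p = 0.189 on ACP). With androgen the VCaP libraries had 221 and 123 CPM, above both stripped ones (1.34 ± 0.26, no test). In LNCaP they had 546 and 483 CPM, also above both stripped ones (0.58 ± 0.16, no test). MDAPCa2a had 1008 and 617 CPM in stripped and 641 and 539 CPM in androgen medium, which overlapped (-0.51 ± 0.29, adjusted p = 0.968). In MDAPCa2a on plastic ABCC4 was at 477 and 458 CPM in control and 746 and 1088 CPM in stripped medium, in the opposite order to LNCaP, at 1.01 ± 0.29 (adjusted p = 0.128).

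ABCC3 and ABCC1 are the remaining drug pumps. ABCC3 in VCaP was at 21.5 CPM in plastic stripped, 13.1 and 3.87 CPM in ACP stripped, 2.93 and 3.45 CPM in ACP control, and 2.31 and 2.09 CPM in ACP androgen libraries. Both androgen libraries lay below both stripped ones (-1.94 ± 0.50, no test), and without VCaP ACP stripped replicate 1 the difference was -0.77. In RWPE ABCC3 was at 33.0 and 32.0 CPM on ACP in control medium, below both plastic values, and fell by 1.05 ± 0.20 against plastic (adjusted p = 0.0198), a call lost without any one of the 4 libraries. In LNCaP it had 0 and 0.0366 CPM in ACP control libraries and 0.568 and 0.376 CPM in plastic control. A fall was called by edgeR (adjusted p = 0.0345) on 1 read in all in the ACP group, and lost without any one of the 4 libraries. With 44 reads in plastic control, ABCC3 passed the LNCaP count filter only through that group, the higher arm. No fall is therefore read from this call. ABCC1 passed no test of medium or surface in any line; its largest tested difference was -0.67 ± 0.26 for stripping on plastic in LNCaP (adjusted p = 0.132). ABCA3 fell on ACP in LNCaP control medium by 0.71 ± 0.18 (adjusted p = 0.031), from 161 and 158 to 74.9 and 108 CPM, a call lost when all lines were fitted together and without 3 of the 4 libraries in turn. In RWPE with androgen ABCA3 was at -0.91 ± 0.30 (adjusted p = 0.0541).

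**Figure D4:**
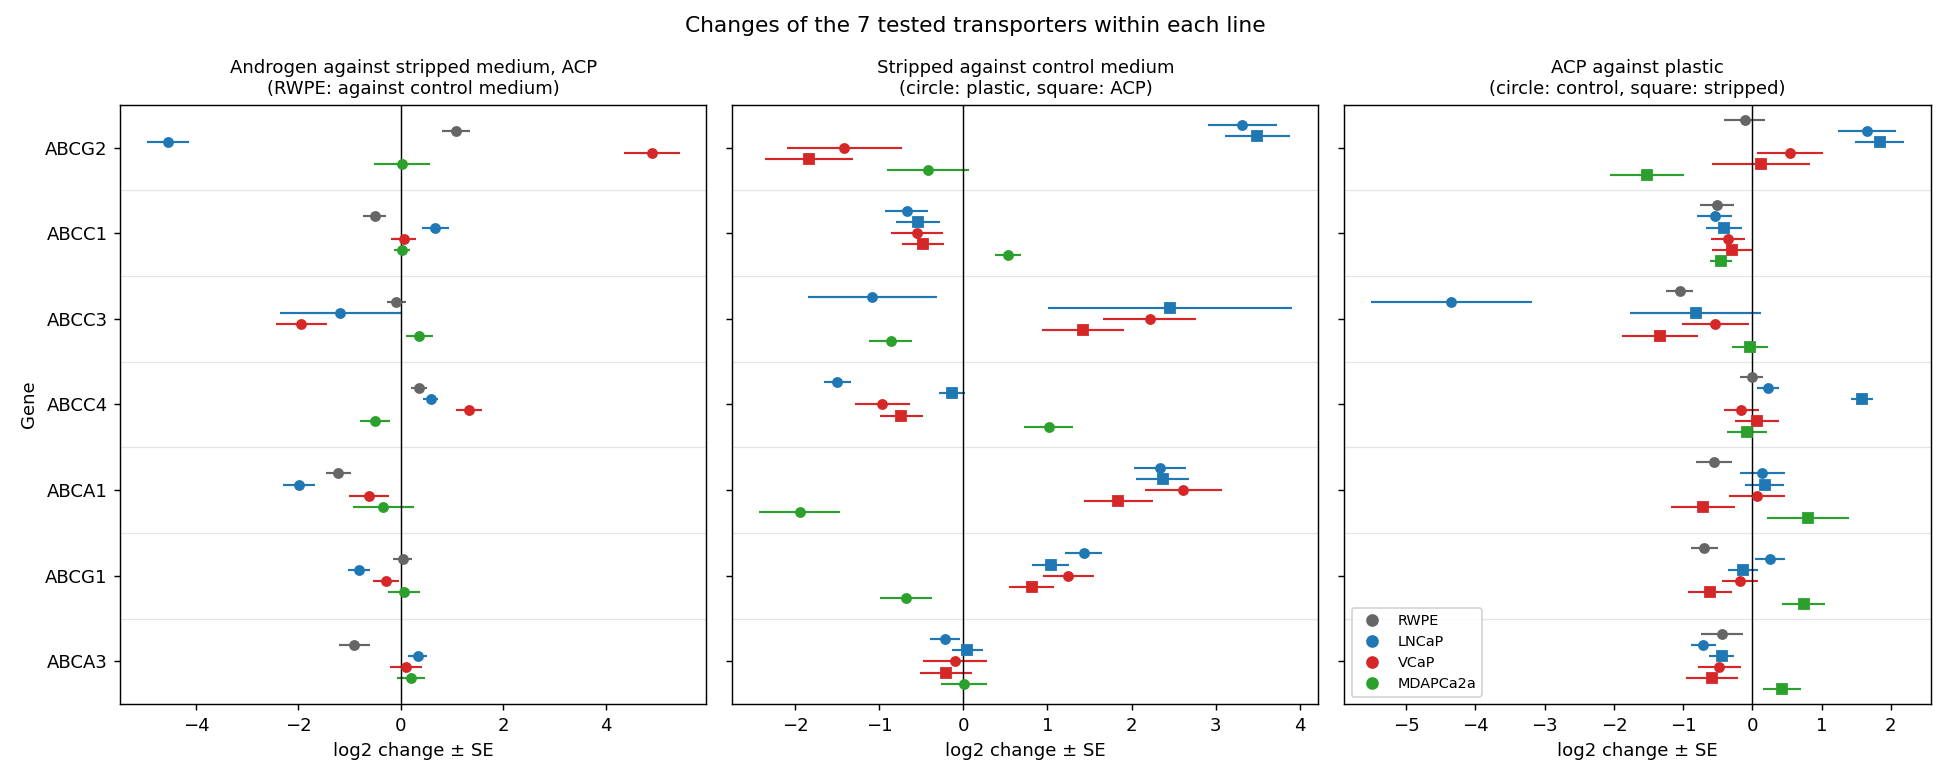
Log2 change ± SE (x axis) of 7 transporters (y axis) for androgen (left), serum stripping (middle) and surface (right), with colours for lines and circles or squares for the surface or medium named above each panel. ABCG2 lies at -4.55 in LNCaP and 4.90 in VCaP for androgen, and on opposite sides of 0 for stripping, while ABCA1 lies above 0 for stripping in LNCaP and VCaP and below 0 in MDAPCa2a.

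Counted by comparison, the members called can be read beside the share of all genes called. With androgen they were 0 of 7 in MDAPCa2a (0% of all genes) and 2 of 7 in RWPE (19.1%). With stripping on plastic they were 4 of 7 in LNCaP (9.45%), 1 of 7 in VCaP (0.89%) and 0 of 7 in MDAPCa2a (1.58%), and on ACP, ABCG2 left out, 2 of 6 in LNCaP (5.37%) and 0 of 6 in VCaP (0.82%). For surface in control medium they were 3 of 7 in LNCaP (12.6%), 1 of 7 in RWPE (4.16%) and 0 of 7 in VCaP (0.0448%). For surface in stripped medium, ABCG2 left out in the first 2 lines, they were 1 of 6 in LNCaP (6.12%), 0 of 6 in VCaP (0%) and 0 of 7 in MDAPCa2a (0.00734%). The VCaP interaction had 0 of 6 (0.0256%). Among the 3 called for LNCaP surface in control medium, ABCC3 passed the count filter only through plastic control, the higher arm. ABCA1 in MDAPCa2a also passed the filter only through plastic control. Where ABCG2 was left out, the other members were still tested on stripped libraries of the contrasts that chose the set. Where edgeR called none, the members with an unadjusted p under 0.05 numbered 0 for MDAPCa2a androgen, 4 for MDAPCa2a stripping, 4 for VCaP stripping on ACP, 0 for VCaP surface in control medium, 1 and 3 for VCaP and MDAPCa2a surface in stripped medium, and 0 for the VCaP interaction. DESeq2 called 1 member for MDAPCa2a stripping, 1 for VCaP stripping on ACP and 0 in the others. In every fit 7 of the 8 members passed the count filter, and ABCB1 passed none.

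Of 40 other ABC genes, 22 to 29 were tested in each line. Of 25 tested in LNCaP, ABCB6, a mitochondrial and lysosomal porphyrin transporter, rose with androgen from a mean of 45.1 to 70.1 CPM (0.63 ± 0.14, adjusted p = 0.0212). ABCA12, a lipid transporter of the epidermis, fell with androgen from 118 to 23.5 CPM (-2.33 ± 0.43, adjusted p = 0.00957). The same LNCaP stripped libraries stood above ACP control (2.01 ± 0.42, adjusted p = 0.0204) and plastic stripped (2.13 ± 0.43, adjusted p = 0.0184) for ABCA12, and these contrasts share libraries. Of 29 tested in VCaP, ABCC5, another cyclic nucleotide pump, fell with androgen from 31.1 to 11.2 CPM (-1.47 ± 0.22, adjusted p = 0.00328), and 1 other gene fell. The list medians for androgen were 0.19 in LNCaP and -0.11 in VCaP beside -0.01 and -0.03 over all genes, and the contrast had chosen ABCG2, so nothing is read from the counts.

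With androgen in RWPE, 6 of 22 tested other ABC genes passed, beside 19.1% of all genes, and the list median was -0.23 beside -0.02 over all genes. ABCE1, a ribosome recycling factor, rose (0.99 ± 0.18, adjusted p = 0.0170), and 5 fell, among them the peptide transporter genes TAP1 and TAP2. In LNCaP stripping on plastic called 5 of 25 (9.45% of all genes): ABCC8, the sulfonylurea receptor, rose (1.71 ± 0.33, adjusted p = 0.00878) and ABCC11 fell most (-1.89 ± 0.45, adjusted p = 0.0247). Stripping on ACP called 3 of 25 (5.37% of all genes), with ABCB6 the largest fall (-0.77 ± 0.14, adjusted p = 0.00918). ACP against plastic called 5 of 25 in control medium (12.6% of all genes), all lower and led by ABCC11 (-1.68 ± 0.45, adjusted p = 0.0341), and 2 in stripped medium (6.12% of all genes), where ABCC8 fell (-1.59 ± 0.33, adjusted p = 0.0216). None of the other ABC genes passed in MDAPCa2a or in any VCaP comparison of surface or stripping, nor in RWPE by surface. Of all genes 0% to 1.58% passed in these MDAPCa2a comparisons, 0% to 0.89% in those of VCaP and 4.16% in RWPE. With shares this low, nothing is read from these counts.

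Between lines, 13 to 16 of 31 tested other ABC genes differed in each pair, beside 40.2% to 62.4% of all genes. ABCC11, a pump for lipophilic anions, averaged 92.7 CPM in MDAPCa2a, 2.98 in LNCaP and 0.614 CPM in VCaP on plastic control, the largest called excess of MDAPCa2a over both lines in the list (4.94 ± 0.44 and 7.21 ± 0.51, adjusted p = 2.00e-09 and 2.54e-11). ABCC12 had 0 reads in RWPE plastic control and 1.58 CPM in MDAPCa2a. ABCA12 averaged 25.5 CPM in LNCaP, 13.9 in RWPE, 0.902 in VCaP and 0.900 CPM in MDAPCa2a. ABCC8 averaged 7.36 CPM in VCaP, 1.69 in LNCaP, 0.116 in MDAPCa2a and 0.0666 CPM in RWPE.

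Other LXR targets were tested beside ABCA1 and ABCG1. Of 8 such genes, LPCAT3, a phospholipid-remodelling enzyme, rose with stripping in LNCaP on ACP (0.93 ± 0.14, adjusted p = 0.00328) and also passed on plastic, as its 1 riser of 3 genes called there. APOE, a lipoprotein component, fell on plastic (-5.90 ± 0.82, adjusted p = 0.00155). In LNCaP APOE averaged 10.8 CPM in plastic control, 0.178 CPM in plastic stripped and 0.146 CPM in ACP control libraries. LNCaP stripping thus called 1 of 8 on ACP (5.37% of all genes) and 3 of 8 on plastic (9.45%). The LXR target medians were 0.02 on ACP and -0.34 on plastic, beside -0.01 over all genes in both. In VCaP none of 8 passed with stripping, beside 0.89% of all genes on plastic and 0.82% on ACP. With androgen 2 of 8 passed in VCaP (17.5% of all genes), PLTP lower (-1.18 ± 0.25, adjusted p = 0.0122) and SREBF1 higher. In RWPE with androgen 2 of 8 passed, both lower, beside 19.1% of all genes.

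Of 8 regulators of drug transporters, 4 to 6 were tested in each line. Those called within lines were PPARG in VCaP and PPARG and RXRA in RWPE with androgen. PPARG, a lipid-sensing nuclear receptor, averaged 9.81 CPM in stripped and 0.755 CPM in androgen medium in VCaP (-3.69 ± 0.58, adjusted p = 0.00407), the opposite order to ABCG2 in the same libraries. On VCaP plastic it averaged 1.17 CPM in control medium and was at 11.3 CPM in the single stripped library (3.33 ± 0.60, adjusted p = 0.0473). RXRA, its partner receptor, fell in RWPE with androgen (-1.04 ± 0.22, adjusted p = 0.0186). By count, 1 of 5 passed in VCaP with androgen (17.5% of all genes), 1 of 5 with stripping on plastic (0.89%) and 2 of 6 in RWPE with androgen (19.1%). No regulator passed in a LNCaP or MDAPCa2a comparison of medium or surface, beside 5.37% to 12.6% and 0% to 1.58% of all genes.

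Across the 17 group means of log2(CPM + 1), the genes whose pattern was most like ABCG2 among 17322 were SLC5A1 (Pearson r = 0.752), BRE-AS1 (0.747), ETV6 (0.742), UFD1L (0.735) and UQCC3 (0.703). With the mean of each line subtracted they were EIF2AK3 (0.912), ADAM2 (0.879), MCU (0.861), AKIP1 (0.851) and EPHX1 (0.83). The order moved with the setting: with 0.1 CPM added in place of 1, ETV6 came first and SLC5A1 was at rank 9, with RLE scaling UQCC3 was at rank 14, and with line means subtracted EPHX1 was at rank 12 with 0.1 CPM and MCU at rank 7 with RLE scaling, while EIF2AK3 was first in each. These correlations are descriptions over groups that share libraries of a line. BRE-AS1 reached at most 1.03 CPM in any library and ADAM2 at most 1.63 CPM, with ADAM2 at 0 CPM in all RWPE libraries, so both lay near the floor. SLC5A1, a glucose transporter, was at 33.6 to 49.7 CPM in VCaP with androgen and 0 to 0.285 CPM without it, but at 1.44 to 2.14 CPM in LNCaP stripped and 1.01 to 1.14 CPM in LNCaP androgen libraries. EIF2AK3, a kinase of the unfolded protein response, was at 42.8 to 45.4 CPM in LNCaP stripped, 32.8 to 34.7 in LNCaP androgen, 21.2 to 25.1 in VCaP stripped and 39.8 to 50.4 CPM in VCaP androgen libraries on ACP, in the order of ABCG2 over a far smaller range. Among the members, r with ABCG2 lay between -0.114 and 0.207 over group means and between -0.478 and 0.213 with line means subtracted.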

How the data were processed

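Polyadenylated RNA of 34 libraries from 4 cell lines was sequenced, and the authors deposited 1 table of whole-number read counts per gene symbol, not normalized. The submitters' processing notes name STAR, HTSeq and hg19. No version or annotation is named, nor whether strand was used (not given in the sources used here), so reads of a gene and an antisense partner cannot be told apart.

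The test was the quasi-likelihood F test of edgeR 4.0.16 under R 4.3.3, with TMM scaling and filterByExpr (minimum count 10). P-values were adjusted by Benjamini-Hochberg over all genes tested, and 0.05 was the threshold. Every adjusted p printed comes from this test. Within a line, all groups of that line were fitted (4 or 5 residual degrees of freedom), and between lines all 34 libraries (17 degrees). Standard errors are the log2 change divided by the square root of F. CPM use TMM sizes over all libraries. Levels per length divide CPM by the union of exons in GENCODE v29, which matched all 8 members. The motif search ran in Python 3.11.15.

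The named genes were all 8 members; of 40 other ABC genes, the called gene with the largest rise and fall in each comparison if its higher group averaged 1 CPM or more; the largest called change among 8 LXR targets and 8 regulators; KLK3, FKBP5 and TMPRSS2; and the 5 genes most like ABCG2. Some genes that this rule names are not reported here. PPARG, SREBF1, TAP1, TAP2 and LYZ values outside this rule were chosen after they were seen. The members and lists were chosen with earlier results of these data known. Each comparison was repeated with RLE factors, with no filter, with the replicate number as a block, with all lines fitted together, with DESeq2 1.42.0 and without each library in turn. For differences of androgen effects between lines, which carry no test, the fits without a library reused the dispersions of the fit of all libraries. A fit without the plastic control libraries was added after seeing the data. The steps were tested on simulated counts. The 34 count columns carry the names given in the sample descriptions.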

Additional observations from a re-analysis of the deposited data

Results flagged for a closer look

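Several members lay apart in opposite directions in a pair of lines: every library of 1 medium or surface was above those of the other in 1 line and below them in the other line. The values below are the log2 change in the first line minus that in the second, from separate fits, and none of these differences was tested. VCaP on plastic in stripped medium is 1 library, and contrasts with plastic control cannot be told apart from the difference of those libraries. With so few libraries such separation is easily reached, and the share of all genes that lay apart in this way is not given.

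With androgen, LNCaP minus VCaP was -9.45 for ABCG2, the difference that chose the set, and VCaP minus MDAPCa2a was -2.30 for ABCC3. In a fit of all lines the ABCC3 difference was -2.34, and -1.18 without VCaP ACP stripped replicate 1. With stripping on ACP, LNCaP minus VCaP was 5.33 for ABCG2, in contrasts that share the stripped libraries with androgen, and its VCaP part went from -1.83 to -0.99 without VCaP ACP control replicate 1.

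With stripping on plastic, LNCaP minus VCaP was 4.73 for ABCG2 and -3.30 for ABCC3. The other pairs included MDAPCa2a. LNCaP minus MDAPCa2a was 4.28 for ABCA1, 2.12 for ABCG1, -2.51 for ABCC4 and -1.20 for ABCC1. VCaP minus MDAPCa2a was 4.56 for ABCA1, 1.94 for ABCG1, 3.08 for ABCC3, -1.98 for ABCC4 and -1.08 for ABCC1. So in MDAPCa2a the libraries of both sterol exporters were lower and those of ABCC1 and ABCC4 higher in stripped than in control medium, and the reverse in LNCaP and VCaP. None of these MDAPCa2a differences passed in edgeR (adjusted p = 0.0869 for ABCA1, 0.316 for ABCG1, 0.132 for ABCC1 and 0.128 for ABCC4). ABCA1 had 11 reads in the MDAPCa2a stripped libraries and 56 in control, and passed the count filter there only through control.

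For ACP against plastic in stripped medium, LNCaP minus MDAPCa2a was 3.36 for ABCG2, where surface and coating cannot be told apart in MDAPCa2a. LNCaP minus VCaP was 0.89 for ABCA1. VCaP minus MDAPCa2a was -1.35 for ABCG1 and -1.52 for ABCA1. In MDAPCa2a stripped medium ABCA1 had 11 reads on plastic and 11 on ACP.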

How the results depend on the processing

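Of 90 single-gene log2 changes, called or given without a test, 89 held with RLE factors, 90 without the count filter and 85 with the replicate block. So did all 89 that DESeq2 could be compared on. In a fit of all lines 31 of 35 held, and without the plastic control libraries 21 of 22. A called change held if it kept its direction and its call. An untested one held if it kept its direction and moved by less than the SD between libraries of a group. Tested changes that were not called were left out, so new calls do not show in these numbers. Counts of members called moved in these settings. Without the count filter they were 1 for MDAPCa2a surface, 3 for VCaP stripping on ACP, 2 for RWPE surface, 4 for VCaP stripping on plastic and 1 for MDAPCa2a stripping. In a fit of all lines they were 1 for RWPE androgen, 2 for VCaP stripping on ACP, 0 for RWPE surface, 1 for LNCaP surface in control medium, 4 for VCaP and 2 for MDAPCa2a stripping on plastic. DESeq2 gave 1 for VCaP stripping on ACP, 2 for RWPE surface, 3 (VCaP) and 1 (MDAPCa2a) for stripping on plastic, and 2 for LNCaP surface in control medium, where its adjusted p for ABCC3 was NA. RLE factors gave 0 for VCaP stripping on plastic, and the fit without plastic control libraries gave 1 for RWPE androgen. The causes were not tested.

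Same-numbered libraries deviated together in some comparisons and not in others (r from -0.402 to 0.577), so they share only a number. With the replicate block the members called were 4 for RWPE androgen, 3 for RWPE surface and 0 for VCaP stripping on plastic (ABCA1 no longer passed), and the ABCC1 androgen difference of VCaP minus MDAPCa2a was 0.013, on the other side of 0.

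Leaving out 1 library at a time, the members called ran from 0 to 4 for RWPE androgen, 1 to 2 for LNCaP and 0 to 1 for VCaP stripping on ACP, 0 to 1 for VCaP stripping on plastic, 0 to 0 for RWPE and 0 to 2 for LNCaP surface in control medium, and 0 to 1 for the LNCaP interaction. An arm of 1 library was assumed to vary like the other groups. Log2 changes that crossed 0 had these ranges: in VCaP androgen, ABCC1 -0.16 to 0.25, ABCG1 -0.52 to 0.024 and ABCA3 -0.29 to 0.40. For androgen in VCaP minus LNCaP they were ABCC3 -1.69 to 2.80 and ABCA3 -0.66 to 0.062, and in MDAPCa2a minus LNCaP ABCA3 -0.54 to 0.34. In VCaP minus MDAPCa2a they were ABCC1 -0.24 to 0.19, ABCG1 -0.76 to 0.11, ABCA1 -1.02 to 0.16 and ABCA3 -0.59 to 0.28. ABCG2 crossed 0 for VCaP surface in stripped medium (-0.19 to 0.41) and for the interactions of LNCaP (-0.25 to 0.72) and VCaP (-0.96 to 0.42). ABCG2 androgen differences ran from -4.82 to -4.20 in LNCaP and 4.45 to 5.27 in VCaP. Depth limits ABCB1, ABCC3 in LNCaP, and ABCA1 in MDAPCa2a, which had 10 or 11 reads in each group outside plastic control.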
